A study of Mus musculus with 4 samples.

Results

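The 8 genes described here encode Aire, Fezf2 and regulators that work with them or on them: Chd4, Prdm1, Sirt1, Hipk2, Irf4 and Prkdc. They were taken by gene symbol from a table of read counts that holds 54532 genes, of which 22046 are protein-coding, and each of the 8 symbols matched 1 row. RNA was sequenced in bulk from sorted thymic epithelial cells of C57BL/6 mice. Medullary cells (mTEC) were sorted as Ly51- UEA1+ and cortical cells (cTEC) as Ly51+ UEA1-, and for each there are cells of SCD1 knockout mice and of their control littermates, labelled WT. SCD1 is a desaturase that makes oleic acid and other monounsaturated fatty acids. The 4 groups (control mTEC, knockout mTEC, control cTEC, knockout cTEC) hold 1 library each. The sources used here do not give the kind of SCD1 allele, the age of the mice or the number of mice behind a library. No difference could be tested, and every interval below covers counting error only, not the spread between mice.

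Developing T cells are screened in the thymus against the body's own proteins. Medullary epithelial cells display proteins that belong to other organs, which allows self-reactive T cells to be deleted or turned into regulatory T cells. Aire, the autoimmune regulator, switches on a large part of these tissue-restricted genes by releasing stalled RNA polymerase at poorly active chromatin, and Fezf2, a zinc finger factor first studied in brain development, controls another part. Mutations of Aire cause multi-organ autoimmunity. The other 6 genes fall into roles. Chd4 is the ATPase of the NuRD chromatin remodelling complex and has been described as a partner of Fezf2. Sirt1 is a deacetylase that acts on Aire, Hipk2 a kinase that phosphorylates it, and Prkdc the catalytic subunit of the DNA-dependent protein kinase found in Aire complexes. Prdm1 (Blimp-1) is a repressor of transcription, and Irf4 is an interferon regulatory factor that is induced downstream of NF-kB signals.

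The promoters of Aire, Fezf2, Irf4 and Sirt1 are shown because these 4 genes were more than 2-fold higher in mTEC than in cTEC in both genotypes. Irf4 and Sirt1 were added to Aire and Fezf2 after their values were seen. Each sequence runs in the direction of transcription from 250 bases before to 50 bases after the RefSeq start (build GRCm38.p6), and capitals mark matches to the motifs described after them.
Aire, chr10:78043561-78043860, minus strand: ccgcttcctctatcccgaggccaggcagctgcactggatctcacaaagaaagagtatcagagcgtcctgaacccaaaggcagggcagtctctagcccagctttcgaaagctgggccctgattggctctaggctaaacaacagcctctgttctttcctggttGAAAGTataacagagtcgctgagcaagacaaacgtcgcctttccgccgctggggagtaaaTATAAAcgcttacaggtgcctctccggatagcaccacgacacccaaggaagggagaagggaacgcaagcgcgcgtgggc
Fezf2, chr14:12345816-12346115, minus strand: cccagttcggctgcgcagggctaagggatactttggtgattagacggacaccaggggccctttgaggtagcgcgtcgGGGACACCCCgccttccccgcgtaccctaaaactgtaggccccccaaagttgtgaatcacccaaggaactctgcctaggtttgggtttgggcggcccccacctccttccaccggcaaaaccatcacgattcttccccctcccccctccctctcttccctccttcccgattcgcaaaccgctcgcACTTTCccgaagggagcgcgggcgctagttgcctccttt
Irf4, chr13:30748983-30749282, plus strand: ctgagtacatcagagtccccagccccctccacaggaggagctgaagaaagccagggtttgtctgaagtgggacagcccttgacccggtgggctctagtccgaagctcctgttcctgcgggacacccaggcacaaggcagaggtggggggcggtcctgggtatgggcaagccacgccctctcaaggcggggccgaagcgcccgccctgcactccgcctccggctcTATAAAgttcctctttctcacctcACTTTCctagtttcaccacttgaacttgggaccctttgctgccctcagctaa
Sirt1, chr10:63338986-63339285, minus strand: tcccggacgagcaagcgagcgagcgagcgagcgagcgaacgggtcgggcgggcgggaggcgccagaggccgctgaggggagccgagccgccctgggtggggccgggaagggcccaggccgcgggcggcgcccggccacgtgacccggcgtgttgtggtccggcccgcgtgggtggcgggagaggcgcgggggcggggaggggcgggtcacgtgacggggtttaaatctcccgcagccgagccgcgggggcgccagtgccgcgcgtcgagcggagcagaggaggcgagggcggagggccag

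Motifs were searched on both strands in all 9 RefSeq promoters of the genes, which cover every one of them except Prkdc. The motifs were the NF-kB consensus, a pair of IRF half-sites (GAAA, any 2 bases, GAAA), the PRDM1 core GAAAGT and the TATA box TATAAA, and the IRF pair and the PRDM1 core have the letters GAAA in common. The Aire window held TATAAA, beginning 29 bases upstream of the start, and GAAAGT, beginning 89 bases upstream. The Irf4 window held the same pair of motifs, with TATAAA beginning 26 bases upstream and the PRDM1 core 2 bases upstream. The Fezf2 window held an NF-kB consensus match beginning 173 bases upstream and a PRDM1 core match beginning 11 bases downstream. None of the 4 motifs was found in the Sirt1 window, and the IRF pair was found in none of the 9 windows. A second Chd4 promoter held an NF-kB match beginning 43 bases upstream. Of 32851 promoters of the same length, 14.3% held the PRDM1 core, 13.6% TATAAA, 4.51% the NF-kB consensus and 3.44% the IRF pair. These matches describe the letters in the windows and are not evidence of binding. The windows also differed in composition: G and C made up 79% of the Sirt1 window with 47 CG dinucleotides, against 55.3% and 16 for Aire, 61.3% and 20 for Fezf2, and 61% and 11 for Irf4. The median promoter had 52.7% and 7. The RefSeq starts of Aire and Irf4 lay within 7 bases of the start of the gene in the count table. Those of Fezf2 and Sirt1 lay 2324 and 42669 bases inside the gene as the table draws it.

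The libraries held between 15740383 and 18151725 reads in genes. Scd1, the targeted gene, had 1310 reads in control mTEC and 278 in knockout mTEC, and 325 and 73 in the respective cTEC libraries, so that its level was 4.85-fold and 5.08-fold lower in the knockout libraries. Enpep, the gene of the sort marker Ly51, was 8.06-fold lower in mTEC than in cTEC in control and 9.03-fold lower in knockout, whereas UEA1 binds a sugar and has no gene to check. Of 11 mTEC markers, 9 were past the 2-fold rule defined below in favour of mTEC in each genotype, and all 10 cTEC markers were past it in favour of cTEC. Trp63, a basal epithelial factor, went against its list, with a cTEC level of 199% of the mTEC level in control and 231% in knockout. Over all genes tested, 19.0% were higher in mTEC and 8.53% lower in control, and 19.8% and 8.96% in knockout. Of the 6 general thymic epithelial markers, such as Epcam and Foxn1, none was at 0, and markers of endothelium summed to between 14.9 and 25.7 CPM and those of fibroblasts to between 176 and 397 CPM.

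Levels are given as CPM (read counts scaled to a common library size, corrected by the TMM method) and, where genes are compared with one another, as CPM per kilobase of the gene's exons. Aire, on chromosome 10 from 78030022 to 78043610 in mm10 (minus strand, ENSMUSG00000000731), had 21598 and 22186 reads in control and knockout mTEC, against 575 and 590 in control and knockout cTEC. Per kilobase this was 331 and 330 CPM in the mTEC libraries and 9.84 and 8.80 in the cTEC libraries. Aire was thus the highest of the 8 genes in both mTEC libraries, above 99.3% of protein-coding genes with at least 10 reads in each, and the fourth in both cTEC libraries, above 65.2% in control and 62.0% in knockout. Fezf2 (chromosome 14, 12342094 to 12348189, minus strand, ENSMUSG00000021743) had 6638, 7336, 907 and 829 reads in the same order of libraries, or 128, 137, 19.5 and 15.5 CPM per kilobase. It was second in mTEC, and its 2 cTEC values lay below both mTEC values. Aire had 2.59 times the level of Fezf2 per kilobase in control mTEC and 2.41 times in knockout mTEC. In cTEC the order was turned round, with Aire at 0.505 times the level of Fezf2 in control and 0.567 times in knockout.

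Of the chromatin and modifying enzymes, Sirt1 and Chd4 were abundant and Hipk2 and Prkdc were low. Sirt1 (chromosome 10, 63319005 to 63381704, minus strand, ENSMUSG00000020063) had 5774 and 6586 reads in control and knockout mTEC, against 1510 and 1926 in control and knockout cTEC, which is 63.6, 70.3, 18.5 and 20.6 CPM per kilobase. The mTEC libraries were both above the cTEC libraries. Chd4 (chromosome 6, 125095981 to 125130591, plus strand, ENSMUSG00000063870) had 4997, 5209, 4750 and 5372 reads in the same order. Its level per kilobase was nearly flat over the libraries, at 36.6, 37.0, 38.8 and 38.2 CPM, which made it the fourth of the 8 genes in mTEC and the first in cTEC. Hipk2 (chromosome 6, 38694390 to 38876165, minus strand, ENSMUSG00000061436) had 454, 441, 238 and 308 reads, or 3.01, 2.84, 1.76 and 1.99 CPM per kilobase. Prkdc (chromosome 16, 15637866 to 15842235, plus strand, ENSMUSG00000022672) had 461, 516, 443 and 433 reads, or 2.05, 2.23, 2.20 and 1.87 CPM per kilobase. Both genes stayed below the median protein-coding gene in every library, with Hipk2 above 26.1% to 41.7% of those genes and Prkdc above 27.6% to 35.1%.

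The remaining 2 transcription factors stood far apart in level. Irf4 (chromosome 13, 30749226 to 30766976, plus strand, ENSMUSG00000021356) had 1110 and 1357 reads in control and knockout mTEC, against 140 and 174 in control and knockout cTEC, or 13.3, 15.8, 1.87 and 2.02 CPM per kilobase. Prdm1 (chromosome 10, 44437177 to 44528501, minus strand, ENSMUSG00000038151) had 171, 183, 82 and 103 reads, or 1.80, 1.87, 0.962 and 1.05 CPM per kilobase. It was the lowest of the 8 genes in each library, with an interval that overlapped that of Prkdc in mTEC. Both mTEC libraries had the order Aire, Fezf2, Sirt1, Chd4, Irf4, Hipk2, Prkdc, Prdm1, and of these neighbours only Prkdc and Prdm1 had overlapping counting intervals. In control cTEC the order was Chd4, Fezf2, Sirt1, Aire, Prkdc, Irf4, Hipk2, Prdm1, where Fezf2 and Sirt1 overlapped, as did Prkdc with Irf4 and Irf4 with Hipk2. In knockout cTEC Sirt1 stood above Fezf2 without overlap, and Irf4, Hipk2 and Prkdc overlapped as neighbours.

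**Figure D1:**
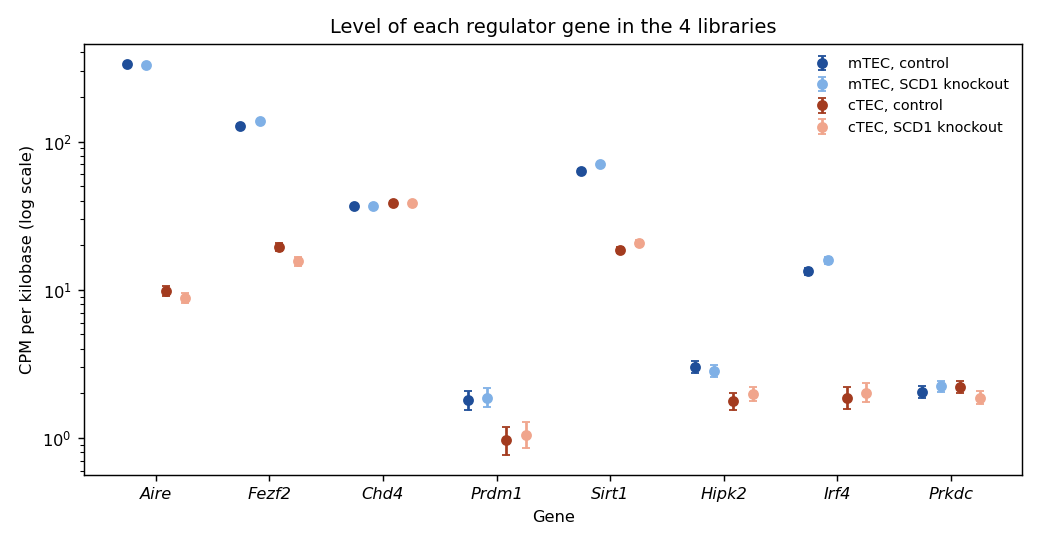
Level of each of the 8 genes in CPM per kilobase on a log axis, with 1 point per library and bars for the 95% Poisson counting interval. Aire and Fezf2 lead in both mTEC libraries, while Chd4 leads in both cTEC libraries.

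The comparison of mTEC with cTEC asks how far each gene belongs to the medullary population. A gene was counted as different when it had at least 50 reads over the 2 libraries, a difference of at least 2-fold and a counting interval that left out 0 on the log2 scale. In control mice 4 of the 8 genes (Aire, Fezf2, Irf4 and Sirt1) were higher in mTEC and 0 lower, where 19.0% of all genes tested were higher and 8.53% lower. The same 4 genes were higher in knockout mice and 0 lower, against 19.8% and 8.96% of all genes. In bulk samples fewer cells of a type and less RNA per cell cannot be told apart.

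Aire had 1267 CPM in control mTEC against 37.6 in control cTEC, a 33.7-fold difference (log2 5.07, 95% counting interval 4.95 to 5.20), and 1263 against 33.7 CPM in knockout, a 37.5-fold difference (5.23, 5.11 to 5.35). Its cTEC level was 2.97% of the mTEC level in control and 2.67% in knockout. None of the 11 mTEC markers had a share as low as that: the lowest was Spib, a transcription factor of medullary cells, with 6.57% in control and 6.89% in knockout, and the median marker had 20.8% and 21.1%. Fezf2 differed by 6.56-fold in control (389 against 59.3 CPM, log2 2.71, 2.61 to 2.82) and by 8.82-fold in knockout (418 against 47.3 CPM, 3.14, 3.04 to 3.25). The cTEC level of Fezf2 was thus 15.2% of the mTEC level in control and 11.3% in knockout, a larger share than that of Aire in each genotype.

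Irf4 differed by 7.09-fold in control (65.1 against 9.16 CPM, log2 2.83, 2.58 to 3.09) and by 7.76-fold in knockout (77.2 against 9.93 CPM, 2.96, 2.73 to 3.20). Sirt1 differed by 3.43-fold in control (339 against 98.8 CPM, 1.78, 1.70 to 1.86) and by 3.41-fold in knockout (1.77, 1.70 to 1.84). Prdm1 and Hipk2 were higher in mTEC by less than the 2-fold rule. Prdm1 differed by 1.86-fold in control (10.03 against 5.37 CPM, 0.90, 0.52 to 1.30) and 1.77-fold in knockout (0.82, 0.47 to 1.19). Hipk2 differed by 1.71-fold in control (26.6 against 15.6 CPM, 0.77, 0.55 to 1.01) and 1.43-fold in knockout (0.51, 0.30 to 0.73). Chd4 and Prkdc were close to equal in the 2 populations. For Chd4 the log2 ratio was -0.08 in control (293 against 311 CPM, -0.14 to -0.03) and -0.05 in knockout (-0.10 to 0.01), and the control value became 0.0079 when libraries were scaled by their totals alone, so its direction is not fixed. For Prkdc it was -0.10 in control (27.1 against 29.0 CPM, -0.29 to 0.09) and 0.25 in knockout (29.4 against 24.7 CPM, 0.06 to 0.44).

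**Figure D2:**
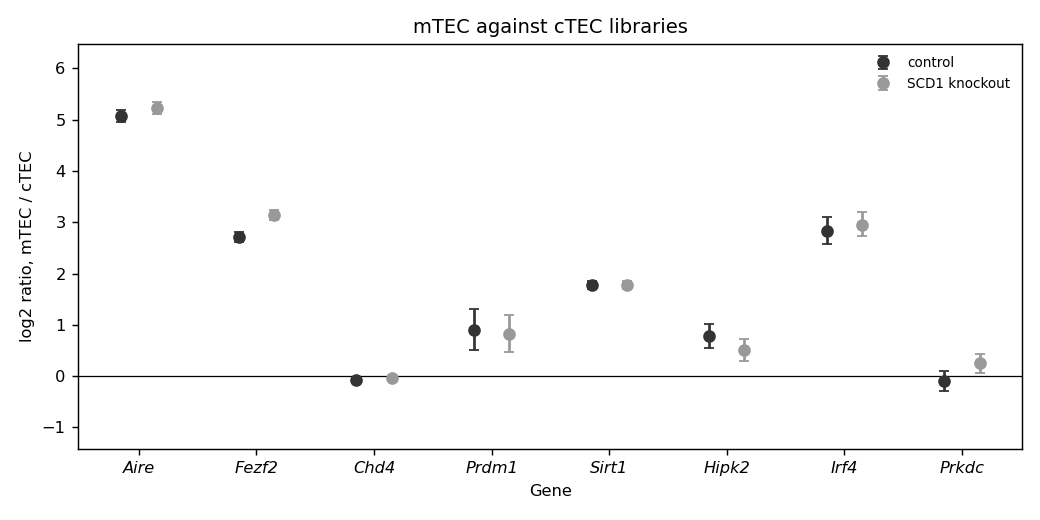
Log2 ratio of mTEC to cTEC for the 8 genes in control and in knockout, with 95% counting intervals. Aire lies highest at 5.07 and 5.23, and Chd4 lies near 0 in both genotypes.

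Irf4 and Prdm1 are also expressed by plasma cells, dendritic cells and T cells. Markers of B and plasma cells summed to 49.6 and 46.5 CPM in control and knockout mTEC and to 18.9 and 21.0 in control and knockout cTEC, and none of the 8 was at 0. Markers of myeloid and dendritic cells summed to 327 and 366 CPM in mTEC and 79.9 and 100.1 in cTEC, again with none of the 13 at 0. Most of the control sums came from 1 gene, Lyz2, with 223 CPM in mTEC and 40.5 in cTEC. Thymocyte markers went the other way, with 248 and 300 CPM in mTEC and 347 and 450 in cTEC. The part of these cells in the levels of Irf4 and Prdm1 was not tested.

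Other components of the same machinery were taken from lists compiled from general knowledge. Of 13 genes of the pathway that induces Aire, which runs from the receptors RANK and CD40 to non-canonical NF-kB, 4 were past the 2-fold rule in favour of mTEC in control and 0 in favour of cTEC, beside the 19.0% and 8.53% of all genes. Their median log2 ratio was 0.34, which lies within the quartiles of all genes tested (-0.46 to 0.57, median -0.06). These were the RANK gene Tnfrsf11a (2.82), Cd40 (2.26) and the NF-kB subunits Nfkb2 (1.32) and Relb (1.07). The lymphotoxin receptor gene Ltbr had a log2 ratio of -0.97. In knockout mice 4 of 13 were higher, beside 19.8% of all genes, and 0 lower, with a median of 0.32 against -0.08 over all genes.

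A second list held general partners of Aire, and its difference from the first was not tested. The counts below stand beside 19.0% of all genes tested that were higher in mTEC in control and 8.53% lower. In knockout these shares were 19.8% and 8.96%. Of 25 partners in transcription, DNA breaks and chromatin, 1 was higher in mTEC in control, the DNA topoisomerase gene Top2a (1.90), and 2 were lower, the histone chaperone gene Daxx (-1.31) and the Ku80 gene Xrcc5 (-1.09), with a median of -0.14. In knockout 1 was higher and 2 lower, with a median of -0.13. Xrcc5 is also the 1 of 9 DNA end joining genes, the pathway of Prkdc, that was past the rule in control, where the list had a median of -0.14. Of 13 other NuRD subunits besides Chd4, 1 was higher, the neuronal Chd4 paralog Chd5 (1.89, from 47 reads in mTEC and 11 in cTEC), and 1 lower, the methyl-CpG binding gene Mbd2 (-1.27). Chd5 met the read minimum mostly through its mTEC reads, so its count supports nothing. The NuRD median was -0.08 in control and -0.05 in knockout, and both medians turned positive when libraries were scaled by their totals (0.02 and 0.04).

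Relatives of the 8 genes from the same families were counted by the same rule. Over all genes tested, 19.0% were higher in mTEC and 8.53% lower in control, and 19.8% and 8.96% in knockout. None of the 6 other sirtuins was past the rule in control (median -0.20), and in knockout 0 were higher and 1, the mitochondrial deacetylase gene Sirt3, was lower (-1.26). With Sirt1, 1 of 7 sirtuins was past the rule in favour of mTEC, which is no more than the share of all genes. Among 8 other interferon regulatory factors in control, Irf5 was higher (1.24) and Irf1 lower (-1.30). Among 9 other PRDM genes with enough reads of 13 listed, Prdm14 was higher in control (2.89, from 45 and 5 reads). In knockout 2 of 9 were higher, Prdm14 (3.82, 49 and 3 reads) and Prdm16 (1.68, 78 and 24 reads). These PRDM genes met the read minimum mostly through their mTEC reads, so their counts support nothing. Of 8 other CHD remodellers, 1 was higher, again Chd5, with a list median of 0.24 in control and 0.15 in knockout. None of the 3 other HIPK kinases was past the rule in control or in knockout.

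**Figure D3:**
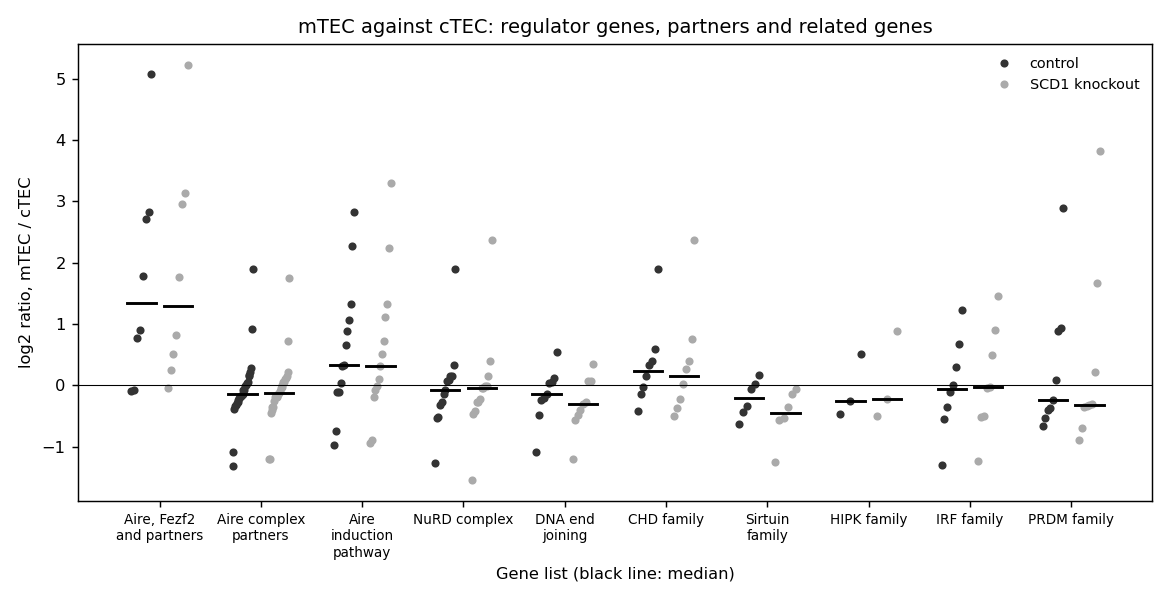
Log2 ratio of mTEC to cTEC for the 8 genes and for each list of partners and relatives, in control and in knockout, with 1 point per gene with at least 50 reads and a black line at the median. The medians of the other lists lie between -0.45 and 0.34, and Aire, Fezf2, Irf4 and Sirt1 lie above 1.

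The comparison of knockout with control in mTEC asks whether loss of SCD1 went with a different level of the regulators. 0 of the 8 genes were past the 2-fold rule in mTEC, where 0.935% of 16466 genes tested were, and 0 were past a 25% rule, where 8.16% were. The 25% rule keeps the read minimum and the interval and asks that the higher level be at least 25% above the lower. Aire had 1267 CPM in control and 1263 in knockout mTEC, a log2 ratio of -0.01 with an interval of -0.03 to 0.02, and 97.1% of the genes tested had a larger ratio in size. Fezf2 had 389 and 418 CPM (0.10, 0.05 to 0.15), Sirt1 339 and 375 CPM (0.15, 0.09 to 0.20) and Irf4 65.1 and 77.2 CPM (0.25, 0.13 to 0.36). These 3 genes were the ones whose interval left out 0, which 21.8% of all genes tested did. The other 4 had log2 ratios of 0.02 (Chd4, -0.04 to 0.07), 0.05 (Prdm1, -0.25 to 0.36), -0.09 (Hipk2, -0.28 to 0.11) and 0.12 (Prkdc, -0.07 to 0.30). Over the 8 genes the median was 0.08, against 0.01 over all genes, whose 5th and 95th percentiles were -0.38 and 0.44.

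In cTEC 0 of the 8 genes were past the 2-fold rule (1.20% of 14445 genes tested) and 1 was past the 25% rule (11.2% of genes in either direction). This gene was Fezf2, which had 907 reads and 59.3 CPM in control cTEC and 829 reads and 47.3 CPM in knockout cTEC, or 79.7% of the control level (log2 -0.33, -0.47 to -0.19). Of the genes tested, 5.75% were past the 25% rule in the lower direction, and 17.2% had a ratio larger in size than that of Fezf2. Prkdc had 29.0 and 24.7 CPM (-0.23, -0.43 to -0.04) and Sirt1 had 98.8 and 109.9 CPM (0.15, 0.06 to 0.25), both short of the 25% rule. With Fezf2 these were the 3 genes whose interval left out 0, as it did for 30.8% of all genes tested. The 5 other genes had intervals that held 0: Aire -0.16 (-0.33 to 0.01), Chd4 -0.02 (-0.08 to 0.04), Prdm1 0.13 (-0.30 to 0.57), Hipk2 0.17 (-0.07 to 0.42) and Irf4 0.11 (-0.21 to 0.45). The median of the 8 was 0.05 against 0.01 over all genes.

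The marker lists of the cells also differed between the genotypes. In cTEC the 10 cTEC markers were all higher in knockout (median log2 ratio 0.33, summed level 18291 CPM in control and 22887 in knockout), while 11 mTEC markers had a median of -0.16 with 4 of 11 above 0 and a summed level of 3593 and 3264 CPM, and none of these markers was at 0. In mTEC the cTEC markers had a median of 0.23 and the mTEC markers of 0.05. Fezf2, Aire and the median mTEC marker had negative log2 ratios in cTEC, though the interval of Aire held 0. Irf4 (0.11) and Sirt1 (0.15), which were also higher in mTEC than in cTEC, had positive ratios there. The part of the marker values in the Fezf2 value was not tested. Several lists for other cells also had positive median ratios of knockout to control. Of 12 thymocyte markers with enough reads, 12 were above 0 in cTEC and 9 past the 25% rule (median 0.38), and in mTEC 11 were above 0 and 3 past it (0.27). Over all genes tested, 52.3% were above 0 in cTEC and 51.9% in mTEC, and 5.41% and 4.86% were past the 25% rule in the higher direction. Of 6 endothelial markers, the 3 with enough reads in cTEC had a median of 0.94 and the 4 in mTEC of 0.69. Cdh5 in cTEC (17 control reads) and Cldn5 in mTEC (10 control reads) met the read minimum mostly through the knockout library, so these medians support nothing. Myeloid and dendritic markers had a median of 0.26 in cTEC (6 of 7 above 0) and 0.13 in mTEC (6 of 10), and their part in the values of the 8 genes was likewise not tested. The genotype ratio of Fezf2 was positive in mTEC and negative in cTEC, with a difference of 0.43 (0.28 to 0.57). How common such a difference is over all genes was not tested. The 2 genotype comparisons use separate libraries, whereas each shares its libraries with the comparisons of mTEC and cTEC.

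**Figure D4:**
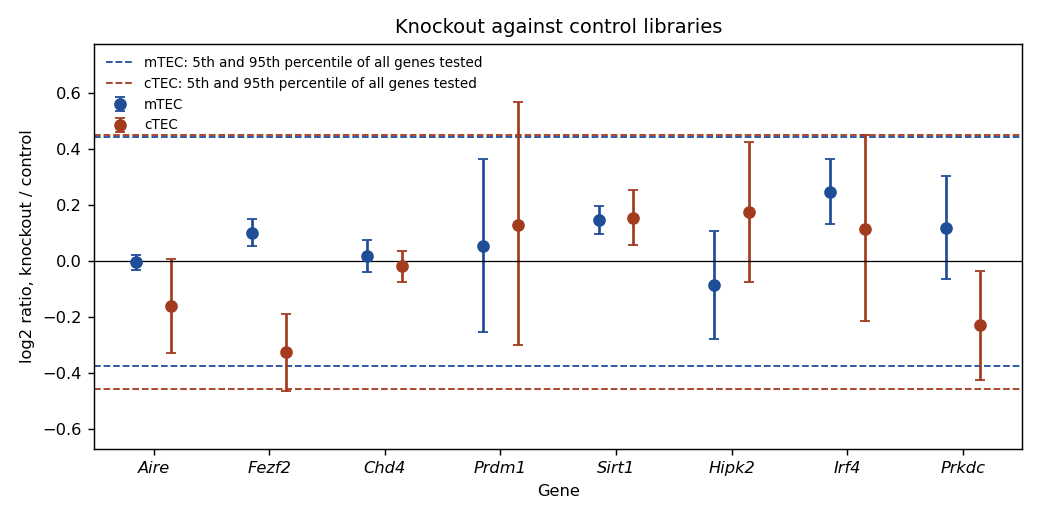
Log2 ratio of knockout to control for the 8 genes in mTEC and in cTEC, with 95% counting intervals and lines for percentiles of all genes tested. Fezf2 lies at 0.10 in mTEC and -0.33 in cTEC, and Aire at -0.01 and -0.16.

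Partners and relatives of the 8 genes were counted by the same rules between the genotypes. Over all genes tested, 8.16% were past the 25% rule in mTEC and 11.2% in cTEC. Of 25 Aire complex partners, 0 were past the 2-fold or the 25% rule in mTEC (median -0.04) and 0 in cTEC (median 0.02). Of the 13 genes of the inducing pathway, 0 were past either rule in mTEC and 1 was past the 25% rule in cTEC, Tnfrsf11a, with 268 reads in control and 227 in knockout (-0.44, -0.70 to -0.18). In mTEC 0 of 13 NuRD, 9 end joining and 3 HIPK genes and 0 of 8 other interferon regulatory factors were past the 25% rule. In cTEC 0 were past it of the 12 NuRD, 9 end joining, 2 HIPK and 8 interferon regulatory factor genes with at least 50 reads, which left out Chd5 and Hipk4. Among the other sirtuins in mTEC, Sirt4 was higher in knockout (0.35) and Sirt3 (-0.65) and Sirt5 (-0.41) were lower past the 25% rule, and 0 of 6 were past it in cTEC. Of 9 other PRDM genes tested in mTEC, 1 was past the 25% rule, Prdm9, which was lower in knockout (-0.77, 50 and 30 reads). Of 8 tested in cTEC, 1 was past it, Prdm16, also lower in knockout (-0.89, 39 and 24 reads). Both met the read minimum mostly through the control library.

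Antigen genes described as dependent on Aire or Fezf2 were listed from general knowledge, without the literature at hand, so membership of these lists is uncertain. Of 15 listed Aire-dependent antigens, 9 had enough reads in the genotype comparison in mTEC. Csn2, the milk protein beta-casein, had 412 CPM in control and 418 in knockout mTEC (0.02), and Ins2, an insulin gene, had 134 and 133 reads (-0.05). The 9 genes had a median of 0.12, and 1 was past the 25% rule, Bpifb1 (0.37), an airway protein. Of all genes tested, 8.16% were past this rule in mTEC and 11.2% in cTEC. In cTEC only 2 had enough reads, Csn2 (-0.08) and Vmo1 (0.81, 32 and 65 reads), and Vmo1 was past the 25% rule. Of 10 Fezf2-dependent antigens, all 10 were tested in mTEC with a median of 0.17, and 1 was past the 25% rule, Resp18 (0.52). In cTEC 7 were tested with a median of -0.14, and 2 were lower in knockout past the 2-fold rule, where 0.706% of all genes tested were. These were Ttr, the thyroid hormone carrier transthyretin, with 40 reads in control and 13 in knockout (-1.78, -2.85 to -0.89), and the apolipoprotein gene Apoc3 with 33 and 17 (-1.13, -2.09 to -0.27). Both met the minimum of 50 reads narrowly and mostly through the control library.

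Between the populations most of the antigens with enough reads were higher in mTEC. All 8 tested Aire-dependent antigens in control and 9 in knockout were past the 2-fold rule in favour of mTEC, but genes with few reads in cTEC passed the read minimum through their mTEC reads, so these counts support nothing. Of the 10 Fezf2-dependent antigens, 8 were past the rule in favour of mTEC in control (median 2.05) and 9 in knockout (median 2.64). Over all genes tested, 19.0% and 19.8% were. Some of the 10 passed the minimum in the same way, such as Calb1 (131 and 5 reads in control) and Fabp9 (80 and 8), so these counts support nothing either.

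**Figure D5:**
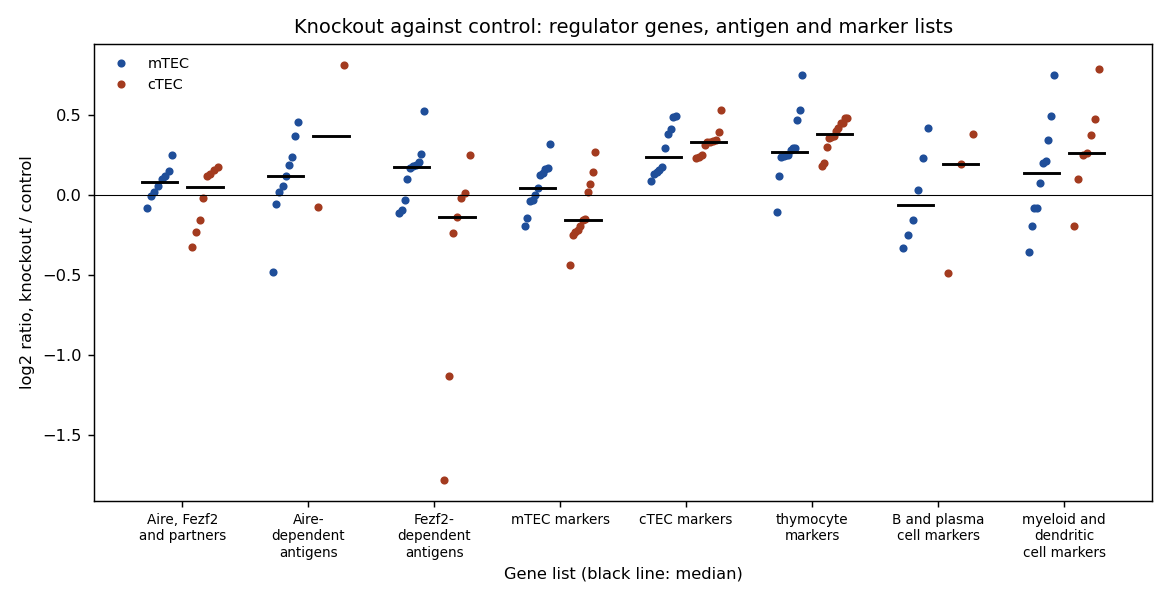
Log2 ratio of knockout to control for the 8 genes, the antigen lists and the marker lists, in mTEC and in cTEC, with 1 point per gene with at least 50 reads and a black line at the median. Among the Fezf2-dependent antigens, Ttr and Apoc3 in cTEC lie lowest, at -1.78 and -1.13.

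Aire and Fezf2 were compared with 10885 protein-coding genes that had at least 500 reads over the 4 libraries, without those named only as predicted models or clones. Among these, the 3 whose levels ran most like those of Aire were Crtac1, Cr2 and Crhbp. Their distances were 0.108, 0.125 and 0.148 on the centred log2 scale over the 4 libraries. Crtac1 had 435, 438, 10 and 11 reads in the order of libraries used above. For Fezf2 they were Alox15, Adcy1 and Ctsh (0.0583, 0.0711 and 0.0743), of which Alox15, a lipoxygenase gene, had 4063, 4503, 529 and 501 reads. With 4 libraries in 2 populations, this likeness rests mostly on the size of the difference between mTEC and cTEC, which all of these genes have in common.

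Some genes lie across the 8 on the genome, and the sources used here do not give the strand setting of the counting. Aire overlaps Dnmt3l on the opposite strand over 67 exon bases, or 1.75% of its exon length, and Dnmt3l had 439, 414, 29 and 29 reads. Sirt1 overlaps the noncoding Gm16145 over 65 exon bases, which had 1 read in all. Chd4 contains the small RNA genes Gm23751 and Mir7045 and Prkdc the pseudogene Gm49511, none of which had more than 9 reads in a library, and Hipk2 and Tbxas1 overlap without shared exon bases. Of 50-base windows of the longest transcript, 5.54% for Hipk2 and 0.446% for Aire also occur in transcripts of other genes, so reads there could be assigned elsewhere, and 0 for the others.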

How the data were processed

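RNA was measured by bulk sequencing in 4 libraries (NEBNext Ultra kit, per the labels' protocols), 1 per group, grouped by their titles. Per the submitters' processing notes, the authors used CASAVA, HISAT2 2.0.5, featureCounts 1.5.0-p3 and mm10. The sources used here do not give the annotation, the strand setting or what was done with reads that match several places. The deposited values are raw counts per gene, and the other deposited column used, per the file headers, is the gene length in bases, which equals the summed exon length in GENCODE M21 for 98.0% of genes.

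Totals were 16467844 and 17051620 reads in control and knockout mTEC, and 15740383 and 18151725 in control and knockout cTEC. TMM factors (edgeR 4.0.16, R 4.3.3) were 1.03 in both mTEC libraries and 0.971 and 0.966 in cTEC. Log2 ratios used a prior count of 0.5, with exact conditional binomial (Clopper-Pearson) 95% intervals, and CPM had exact Poisson intervals. Reads are not independent molecules, so intervals cover counting error only. With 1 library per group no test was run and no p-value is given. Genes were counted by a 2-fold or a 25% rule with at least 50 reads over the pair. The scripts used Python 3.11.15 with pandas 2.3.3 and scipy 1.17.1. The intervals were run on simulated Poisson counts, which hold counting error only, so this checked the calculation and not how well the intervals suit real reads.

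The 8 genes, the other lists and the motifs were chosen with earlier results of these data known. The genes named are the 8, Scd1, Enpep, up to 3 genes per list with the largest ratios, 3 nearest genes each for Aire and Fezf2 and genes that overlap the 8 on the genome. Others named in counts of 5 or fewer, and the antigens given as examples, were chosen after their values were seen. Alternatives were other scalings (DESeq2 1.42.0 size factors, protein-coding TMM, totals), a prior of 2, other read minimums and a fold of 1.5. Protein sequences were not used here.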

Additional observations from a re-analysis of the deposited data

Results flagged for a closer look

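Fezf2 had opposite genotype ratios in the 2 populations. Its log2 ratio of knockout to control was 0.10 in mTEC and -0.33 in cTEC, a difference of 0.43 (95% counting interval 0.28 to 0.57). Prkdc likewise had a ratio of 0.12 in mTEC and -0.23 in cTEC, a difference of 0.35 (0.09 to 0.61). In both cases the knockout library was above control in mTEC and below it in cTEC, and the interval for Prkdc in mTEC held 0. Neither difference was tested, since there is 1 library per group. Of the other 6 genes, Aire had a difference of 0.16 (-0.01 to 0.32) and none had an interval that left out 0. The share of all genes whose difference had an interval without 0 was not computed. How unusual Fezf2 and Prkdc are in this respect was therefore not tested. For the genotype ratios themselves, the interval left out 0 for 21.8% of all genes tested in mTEC and 30.8% in cTEC.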

How the results depend on the processing

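No paired analysis was possible because each group has 1 library, and for the same reason no library could be left out. Of 128 ratios of the 8 genes under other settings, 124 stayed within the counting interval of the main setting. A ratio near 0, such as that of Aire between genotypes in mTEC, could change its sign within that interval. Of 48 counts of the 8 genes, 47 stayed within 1.5-fold of the main count. The exceptions among the ratios arose with total counts in place of TMM factors, which moved the median of mTEC against cTEC by 0.09. Chd4 then turned from -0.08 to 0.0079 in control and stood at 0.046 in knockout, and Sirt1 stood at 1.87 in control and 1.86 in knockout. With a fold of 1.5, 0 of the 8 genes were past the rule in cTEC between genotypes, so Fezf2 was not. For mTEC against cTEC the same fold added Prdm1 (1.86-fold) and Hipk2 (1.71-fold) in control and Prdm1 (1.77-fold) in knockout. Counts over all genes depended on the read minimum and the fold. The 154 genes past 2-fold in mTEC between genotypes became 770 with a minimum of 10 reads, 19 with 200, 992 with none and 594 with a fold of 1.5, and the 173 in cTEC became 844, 20, 1182 and 675. The 1343 genes past the 25% rule in mTEC became 726 with 200 reads, 2199 with none and 594 at 1.5-fold, and the 1612 in cTEC became 964, 2632 and 675. For mTEC against cTEC, 4333 genes in control became 6989, 2353, 7790 and 6857 with a minimum of 10, 200, none and a fold of 1.5, and 4592 in knockout became 7307, 2515, 8136 and 7161. The median of the Aire-dependent antigens in cTEC between genotypes turned to -0.075 with a minimum of 200 reads, where 1 gene was left. Without the length scaling, 6, 6, 4 and 6 of the 8 genes kept their place in the order in control mTEC, knockout mTEC, control cTEC and knockout cTEC. Prdm1, Hipk2, Prkdc and cTEC Irf4 rest on few reads, which limits what could be seen.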
